A study of Mus musculus with 115 samples.

Results

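Hearts of mice without the adenine nucleotide translocator Ant1, the product of Slc25a4, were compared with wild type hearts after both had received the same control virus. The knockout hearts carried the labelled genotype C57BL/6JEiJ ANT1 -/- and the wild type hearts C57BL/6JEiJ. The control vector, AAV2/9Des-Gfp, is an adeno-associated virus that carries Gfp and no Ant1, and 2.5e+11 vector genomes of it had been given into the pericardium. No heart in the comparison was free of virus, and the labels do not explain "Des" or say how the null allele was made. Libraries were chosen by labelled genotype and vector, which gave 40 of the 115 samples of the series. Titles carry a number that was taken to name the heart, which the labels do not state, and libraries with the same number and group were summed. That left 3 knockout hearts (35, 36 and 38, with 18 libraries) and 4 wild type hearts (23, 24, 25 and 70, with 22 libraries). Where a vector with mouse Ant1, AAV2/9Des-Gfp-mAnt1, enters below, it concerns 4 knockout hearts (20 libraries) and 3 wild type hearts (10 libraries) given the same dose. A last group of 3 hearts (16 libraries) also lacked Ant1, had the ND6 P25L substitution in its mitochondrial genome and received the control vector.

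Ant1 sits in the inner mitochondrial membrane and trades cytosolic ADP for matrix ATP, so the energy made by oxidative phosphorylation reaches the myofibrils and ion pumps through it. It is the main translocator of heart and skeletal muscle, beside Ant2 (Slc25a5), which many tissues use, and Slc25a31, known from testis. Mice without Ant1 are known for a mitochondrial myopathy, an enlarged heart and a proliferation of mitochondria in muscle.

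RNA was measured on an amplicon panel of 23930 targets, and each heart gave between 30559079 and 34760481 counts in all. Levels are CPM, an amplicon's counts scaled to the same library total in every heart. Means are given ± SD over 3 knockout and 4 wild type hearts, and log2 changes ± SE are knockout over wild type. Values of single hearts follow the order 35, 36 and 38 for the knockout hearts and 23, 24, 25 and 70 for the wild type hearts. Adjusted p values come from edgeR's quasi-likelihood test with Benjamini-Hochberg adjustment over the 15403 genes tested, and a gene passed at 0.05. The spread within groups was estimated from all 22 hearts of 7 groups in 1 fit, not from the 7 compared hearts alone. The labels say nothing of litters, ages or sexes. The Y-linked gene Ddx3y was present in all 7 hearts (251 ± 9.01 CPM in knockout hearts, against 238 ± 6.60 CPM in wild type hearts). The series lists 1, 3, 6, 9 and 12 months after injection, and an age difference between the groups cannot be told apart from the genotype. Knockout heart 35 shared its count tables with wild type hearts 23, 24 and 25, while knockout hearts 36 and 38 and wild type heart 70 each lay in other tables. Genes that did not pass within the shared tables, where only 1 knockout heart stands, are named at the end of the paragraph that describes them. In whole heart RNA, fewer cells of a type and less RNA per cell cannot be told apart.

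Slc25a4 (chr8:46206797-46211284, mm10) was nearly absent from the knockout hearts. It had 2.03, 0.617 and 0.331 CPM in the knockout hearts, from 62, 19 and 10 counts, against 11256, 11380, 10467 and 8464 CPM in the wild type hearts. The log2 change was -13.35 ± 1.03. Slc25a31, the other translocator on the panel, stood at 1.48 ± 0.105 CPM in knockout hearts, against 1.30 ± 0.257 CPM in wild type hearts (adjusted p = 0.708). Slc25a5 had no amplicon, so a change in Ant2 was not measured.

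Between knockout and wild type hearts 2220 of the 15403 genes passed the threshold (14.4%), 1261 higher (8.19%) and 959 lower (6.23%). Most changes were small, as 826 of the higher and 456 of the lower genes changed by less than 1.5-fold, and 48 and 96 by 4-fold or more. Knockout and wild type values were fully apart in 2095 of these 2220 genes, and in 26.7% of all genes tested. The median log2 change of all tested genes was -0.03. Genes of middle and high level passed more often, with 4.26% of genes under 1 CPM called and 23.1% of those from 100 to 1000 CPM. Called higher were 51 of 3238 genes under 1 CPM, 716 of 6500 from 10 to 100 CPM and 269 of 1473 from 100 to 1000 CPM. The shares over all tested genes are thus not matched to the level of a list's members. Leaving out knockout heart 38 reduced the lower genes to 499 and leaving out knockout heart 36 to 564. Within the shared tables, with knockout heart 35 alone against 3 wild type hearts, 367 genes passed, 258 of them higher. Of the 2220 genes 796 (35.9%) passed in the same direction under all 15 other settings that asked for no minimum fold, 999 (45%) with each heart left out in turn, and 351 (15.8%) within the shared tables. The genes named below were picked with these outcomes known and mostly from the 796, so they hold their calls more often than the 2220 do.

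A small set of genes that heart muscle turns on under load was among the clearest changes. The promoters of the 4 higher members of the load-stress list with the smallest adjusted p are printed here, because these genes carry the muscle response described next. Each sequence is the 200 bases before the annotated start in RefSeq on GRCm38.p6, 5′ to 3′ on the gene's own strand. Capitals mark a CArG box (the site of serum response factor, searched as CC, 6 A or T bases, GG) or an MCAT element (the site of TEAD factors, searched as CATTCC or its reverse complement GGAATG), on either strand. Of 32851 mouse promoters of this length 1.18% held a CArG box and 10.1% an MCAT element.
Ankrd2, chr19:42035827-42036026, plus strand: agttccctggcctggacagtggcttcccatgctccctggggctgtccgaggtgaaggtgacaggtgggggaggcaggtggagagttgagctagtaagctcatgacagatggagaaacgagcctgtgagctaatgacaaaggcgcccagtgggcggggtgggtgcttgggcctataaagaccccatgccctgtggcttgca
Acta1, chr8:123894776-123894975, minus strand: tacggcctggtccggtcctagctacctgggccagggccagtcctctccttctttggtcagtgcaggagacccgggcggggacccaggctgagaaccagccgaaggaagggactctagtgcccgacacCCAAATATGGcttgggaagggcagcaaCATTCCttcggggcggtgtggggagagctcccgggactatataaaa
Ankrd1, chr19:36119845-36120044, minus strand: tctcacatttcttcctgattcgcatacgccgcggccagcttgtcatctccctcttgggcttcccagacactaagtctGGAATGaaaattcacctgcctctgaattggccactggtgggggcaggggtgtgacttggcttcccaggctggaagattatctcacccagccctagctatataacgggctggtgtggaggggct
Nppb, chr4:147985700-147985899, plus strand: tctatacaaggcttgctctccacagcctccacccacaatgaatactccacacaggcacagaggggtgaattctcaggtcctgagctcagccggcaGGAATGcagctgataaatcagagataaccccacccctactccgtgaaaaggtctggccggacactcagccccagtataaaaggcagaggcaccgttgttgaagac
The CArG box of Acta1 began 73 bases and its MCAT element 46 bases before the start. The MCAT elements of Ankrd1 and Nppb began 123 and 105 bases before theirs. No capitals stand in the Ankrd2 window.

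Acta1, the skeletal alpha-actin of the fetal heart that adult muscle takes up again under load, had 673, 979 and 972 CPM in the knockout hearts, against 90.8, 158, 133.3 and 177 CPM in the wild type hearts. No wild type heart reached the lowest knockout heart, and the means differed 6.25-fold (log2 change 2.64 ± 0.30, adjusted p = 3.1e-06). Ankrd2, a stretch-responsive ankyrin repeat protein of striated muscle, had 10.1, 11.0 and 13.3 CPM in the knockout hearts, against 1.37, 1.52, 2.47 and 0.990 CPM in the wild type hearts. Its means differed 7.19-fold (log2 change 2.85 ± 0.28, adjusted p = 5.02e-07), although it stayed a low transcript. Ankrd1, its cardiac relative at the sarcomere, had 2595, 2250.4 and 2876 CPM in the knockout hearts, against 1172, 1309.5, 1598 and 866 CPM in the wild type hearts (log2 change 1.06 ± 0.17, adjusted p = 0.000193). Nppb, the B-type natriuretic peptide of the loaded ventricle, had 962, 1397 and 1512 CPM in the knockout hearts, against 628, 597, 389 and 328 CPM in the wild type hearts (log2 change 1.41 ± 0.27, adjusted p = 0.00106). The groups were apart in each of these genes, though within the shared tables the Nppb log2 change was 0.82 and its adjusted p 0.274. Xirp2, an actin-binding protein of the intercalated disc, rose as well (619 ± 59.0 CPM in knockout hearts, against 417 ± 45.1 CPM in wild type hearts, adjusted p = 0.00613). Xirp2 lost its call within the shared tables (adjusted p = 0.316).

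The rise did not extend to the whole load-stress program. Of 26 tested members of the list 6 rose (23.1%) and 2 fell (7.69%), and the median log2 change was 0.06, or 0.10 within the shared tables. Nppa, the atrial natriuretic peptide, had 4126, 3395 and 3836 CPM in the knockout hearts, against 3613, 4802, 2995 and 3818 CPM in the wild type hearts, and the groups overlapped (log2 change -0.01 ± 0.24, adjusted p = 0.986). The atrial marker Bmp10, named after its values were seen, differed widely between wild type hearts. It had 168.4, 100.9 and 116.8 CPM in the knockout hearts, against 0.953, 161.1, 3.17 and 172.8 CPM in the wild type hearts. Nppa too was lower in wild type hearts 23 and 25 than in 24 and 70. The part of atrial content in the Nppa result was not tested. Atp2a2, the calcium pump whose level often falls in failing hearts, stood at 13343 ± 811 CPM in knockout hearts, against 13225 ± 845 CPM in wild type hearts (adjusted p = 0.934). Gdf15, a secreted signal of mitochondrial stress, had 4.97, 5.75 and 5.88 CPM in the knockout hearts, against 1.995, 6.39, 4.23 and 3.87 CPM in the wild type hearts (adjusted p = 0.601). Fgf21, a hormone released under the same stress, had too few counts to be tested. The lower members were the deubiquitinase gene Uchl1 (20.7 ± 1.06 CPM in knockout hearts, against 28.0 ± 1.06 CPM in wild type hearts) and the pacemaker channel gene Hcn4. Uchl1 did not pass within the shared tables (adjusted p = 0.0983).

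**Figure D1:**
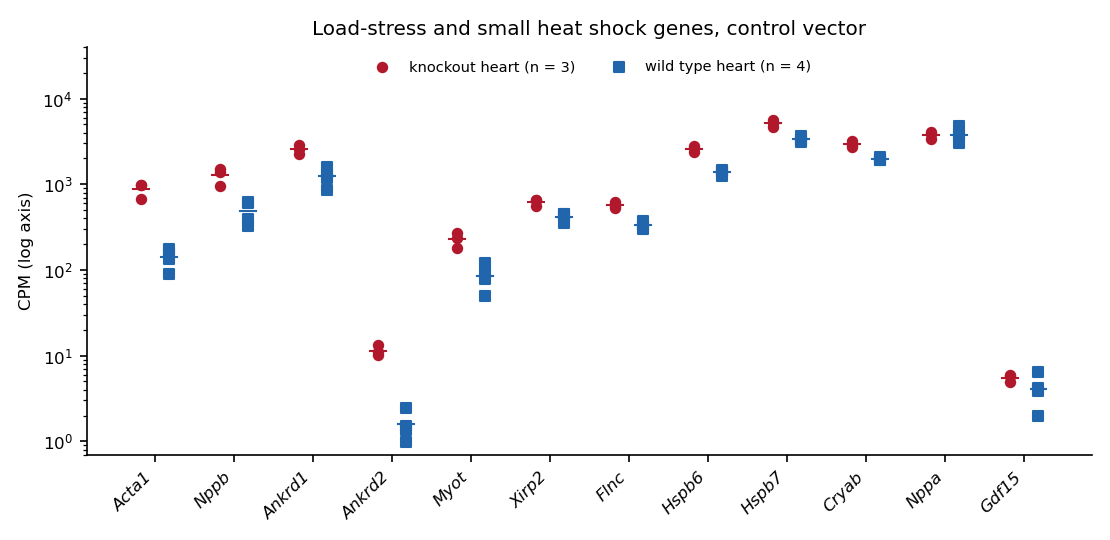
CPM on a log axis of 12 load-stress, Z-disc and small heat shock genes in each knockout heart (circles, left of each pair) and each wild type heart (squares, right), with the group mean as a line. The knockout hearts lie above the wild type hearts in the first 10 genes and overlap them in Nppa and Gdf15.

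Small heat shock proteins hold unfolding myofibril proteins. Of 6 tested members 3 rose, all of them abundant transcripts, and none fell, and the median log2 change was 0.36. Hspb6 had 2349.7, 2783 and 2639 CPM in the knockout hearts, against 1428, 1464, 1239 and 1399 CPM in the wild type hearts, a 1.87-fold difference of means (log2 change 0.91 ± 0.10, adjusted p = 1.71e-06). Hspb7 had 5146, 5572 and 4672 CPM in the knockout hearts, against 3421, 3235, 3092 and 3649.6 CPM in the wild type hearts (log2 change 0.62 ± 0.08, adjusted p = 3.48e-05). Cryab, the alpha-B crystallin that binds desmin and titin, had 2753, 2912 and 3187 CPM in the knockout hearts, against 1924, 2077, 1984 and 1939 CPM in the wild type hearts (log2 change 0.57 ± 0.09, adjusted p = 0.000157). In each of these genes the lowest knockout heart exceeded the highest wild type heart. Of 16 tested heat shock genes inducible by the factor HSF1, 4 rose and none fell, with a median log2 change of 0.13, or 0.0070 within the shared tables. Among the 4 were the co-chaperone genes Hspa4l (66.7 ± 6.49 CPM in knockout hearts, against 41.1 ± 2.06 CPM in wild type hearts, adjusted p = 0.000169) and Ahsa1 (260.5 ± 27.3 CPM in knockout hearts, against 188.7 ± 19.1 CPM in wild type hearts, adjusted p = 0.00308). In the shared tables alone Cryab, Hspa4l and Ahsa1 did not pass (adjusted p = 0.0939 to 0.482), where the log2 change of Ahsa1 was 0.21, against 0.47 over all hearts.

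Genes of the Z-disc and of its links to the membrane rose in part. Of 35 tested Z-disc, costamere and intercalated disc genes 11 rose (31.4%) and 2 fell (5.71%), with a median log2 change of 0.14, or 0.03 within the shared tables. Des, the intermediate filament desmin, stood at 3473 ± 83.4 CPM in knockout hearts, against 2618 ± 279.8 CPM in wild type hearts (log2 change 0.41 ± 0.07, adjusted p = 0.000429). Tcap, the titin cap, had 6715, 5984 and 6255 CPM in the knockout hearts, against 4373, 4014, 4590.3 and 3576 CPM in the wild type hearts (adjusted p = 0.00485). Csrp3, the muscle LIM protein, rose to 3386 ± 301 CPM in knockout hearts, against 2591 ± 194 CPM in wild type hearts (adjusted p = 0.00333). Larger were the changes of Myot, which crosslinks actin at the Z-disc (228 ± 43.9 CPM in knockout hearts, against 85.4 ± 29.6 CPM in wild type hearts, adjusted p = 0.000723), and of the filamin gene Flnc (571 ± 52.5 CPM in knockout hearts, against 336 ± 29.2 CPM in wild type hearts, adjusted p = 0.00835). Sgcd, a sarcoglycan of the membrane complex, fell to 86.5 ± 1.81 CPM in knockout hearts, against 111 ± 6.18 CPM in wild type hearts (adjusted p = 0.00521). Knockout heart 35 against wild type hearts 23, 24 and 25 gave no call for Des, Tcap, Csrp3, Flnc and Sgcd (adjusted p = 0.113 to 0.246).

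Among 27 tested sarcomere genes 5 rose and 2 fell, and the median log2 change was 0.03, or -0.06 within the shared tables. Myom3, an M-band protein of slow skeletal fibres, rose at a low level, with 2.35, 2.37 and 3.47 CPM in the knockout hearts, against 0.268, 0.297, 0.382 and 0.309 CPM in the wild type hearts (log2 change 3.10 ± 0.25, adjusted p = 2.89e-08). Mylk3, the cardiac myosin light chain kinase, fell, with 265, 239.9 and 215 CPM in the knockout hearts, against 461, 454, 448 and 406 CPM in the wild type hearts (log2 change -0.88 ± 0.11, adjusted p = 1.12e-05). Tpm1, the striated muscle tropomyosin, fell too, with 3621, 3532 and 3854 CPM in the knockout hearts, against 6106, 6308, 6089 and 4222 CPM in the wild type hearts (log2 change -0.63 ± 0.11, adjusted p = 0.000362). Wild type heart 70 was the lowest of its group for Tpm1 and still lay above every knockout heart. Myh7, the slow myosin of the fetal gene program, had no amplicon.

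Among genes that build mitochondria the changes were small. Of 43 tested proteins of the large mitochondrial ribosomal subunit 19 rose (44.2%) and none fell, with a median log2 change of 0.25. Of 30 of the small subunit 6 rose and none fell, with a median of 0.23. Within the shared tables those medians were 0.18 and 0.10. Mrps23, a small subunit protein, had 609, 598 and 562 CPM in the knockout hearts, against 351, 383, 399.9 and 319.9 CPM in the wild type hearts (log2 change 0.70 ± 0.09, adjusted p = 2.11e-05). Other members that rose were Mrpl43 (96.9 ± 11.6 CPM in knockout hearts, against 63.7 ± 5.53 CPM in wild type hearts), Mrpl55 (198 ± 7.07 CPM in knockout hearts, against 139 ± 7.94 CPM in wild type hearts) and Mrps18b (123 ± 5.97 CPM in knockout hearts, against 82.9 ± 9.83 CPM in wild type hearts). The median over the large subunit genes of log2(CPM + 0.5), taken relative to the wild type mean, was 0.20, 0.31 and 0.28 in the knockout hearts, against 0.06, 0.06, -0.01 and -0.13 in the wild type hearts. Knockout and wild type hearts were thus apart in this median, with wild type heart 70 the lowest. The groups were also apart in the medians of other lists, such as the interferon, autophagy and pericyte lists. Over all tested genes they were apart by little, at -0.0226, -0.0122 and -0.0076 in the knockout hearts, against 0.0046, -0.0034, -0.0042 and 0.0018 in the wild type hearts. The count of 19 became 12 without knockout heart 36 or 38 and 14 without wild type heart 70. No call was made for Mrpl55 and Mrps18b within the shared tables (adjusted p = 0.0942 and 0.0567).

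Upstream of the ribosome, genes that copy and transcribe mitochondrial DNA rose in part. Of 21 tested members 6 rose and none fell, with a median log2 change of 0.21. Polrmt, the mitochondrial RNA polymerase, stood at 31.0 ± 2.75 CPM in knockout hearts, against 20.0 ± 1.40 CPM in wild type hearts (log2 change 0.64 ± 0.13, adjusted p = 0.0025), and Tefm, its elongation factor, at 38.3 ± 2.81 CPM in knockout hearts, against 27.3 ± 3.27 CPM in wild type hearts (log2 change 0.49 ± 0.09, adjusted p = 0.00049). Without knockout heart 35 the count was 4. Of 27 mitochondrial tRNA synthetases and translation factors 9 rose and 1 fell, led by Taco1, an activator of cytochrome oxidase translation (106 ± 3.15 CPM in knockout hearts, against 77.0 ± 3.07 CPM in wild type hearts, adjusted p = 0.000806), and Tsfm, an elongation factor (115 ± 2.34 CPM in knockout hearts, against 83.0 ± 5.11 CPM in wild type hearts, adjusted p = 0.00162). That count was 6 without knockout heart 38. The regulators of mitochondrial biogenesis moved little, since 2 of 19 rose and the median log2 change was -0.004, or 0.08 within the shared tables. Among them was Esrrg, an estrogen-related receptor of oxidative muscle (59.5 ± 1.74 CPM in knockout hearts, against 44.1 ± 2.02 CPM in wild type hearts, adjusted p = 0.00148). Polrmt, Tefm, Tsfm and Esrrg lost their calls within the shared tables (adjusted p = 0.0579 to 0.234), where the log2 change of Tefm was 0.30, against 0.49 over all hearts.

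Protein import had the highest share of higher genes among the mitochondrial lists. Of 38 tested import, chaperone and protease genes 17 rose (44.7%) and none fell, with a median log2 change of 0.28. Grpel1, the nucleotide exchange factor of the mitochondrial Hsp70 motor, had 200.2, 194 and 213 CPM in the knockout hearts, against 129, 138, 143 and 115 CPM in the wild type hearts (log2 change 0.62 ± 0.08, adjusted p = 2.24e-05). Its partner Timm44, which tethers the motor to the inner membrane channel, rose to 171 ± 3.77 CPM in knockout hearts, against 129.5 ± 6.25 CPM in wild type hearts (adjusted p = 0.000256). At the outer membrane the receptor genes Tomm22 (56.0 ± 6.97 CPM in knockout hearts, against 36.8 ± 3.59 CPM in wild type hearts, adjusted p = 0.000537) and Tomm70a (57.2 ± 8.52 CPM in knockout hearts, against 40.5 ± 2.40 CPM in wild type hearts, adjusted p = 0.00384) rose. The median was 0.17 within the shared tables. By heart it was 0.20, 0.26 and 0.31 in the knockout hearts, against 0.08, 0.06, -0.02 and -0.16 in the wild type hearts. The count depended on single hearts: it was 5 without knockout heart 38, 10 without knockout heart 36 and 9 without wild type heart 70. Timm44, Tomm22 and Tomm70a did not pass within the shared tables (adjusted p = 0.0536 to 0.519), where the log2 change of Tomm70a was 0.23, against 0.50 over all hearts.

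**Figure D2:**
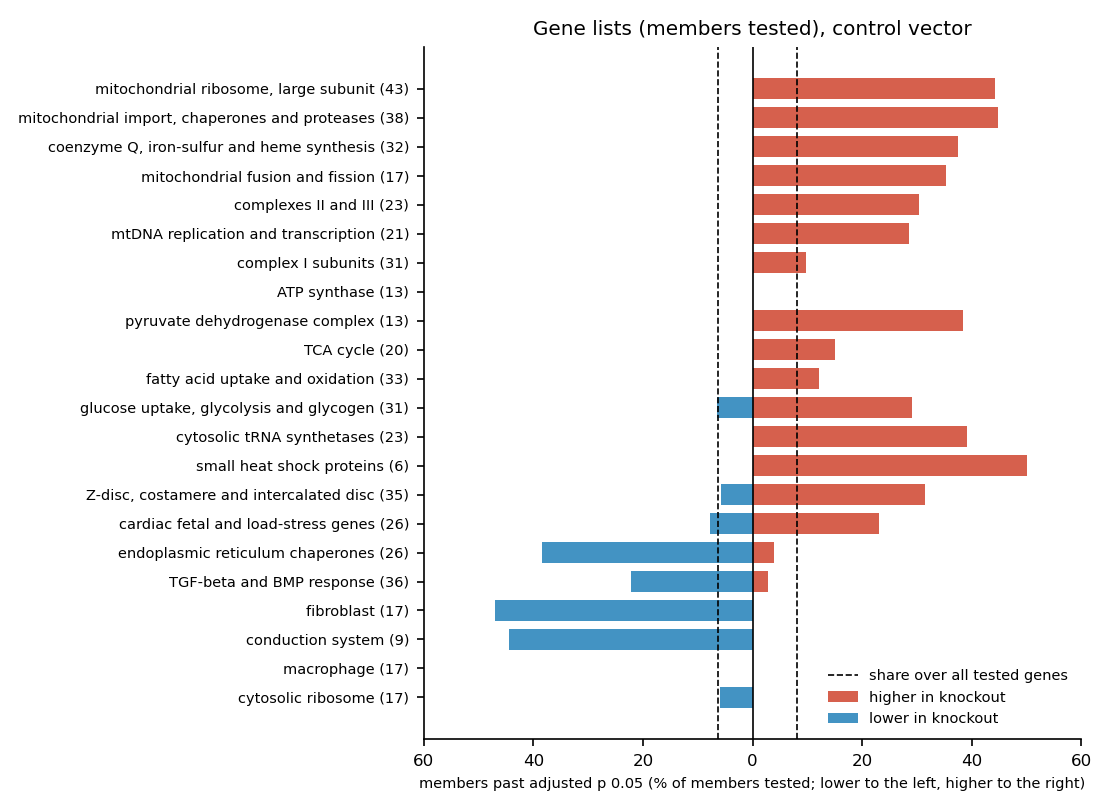
Share of tested members past adjusted p 0.05 in 22 gene lists, with higher in knockout drawn to the right and lower in knockout to the left, and the number tested in brackets. Dashed lines mark the shares over all 15403 genes, 8.19% higher and 6.23% lower, which are not matched to the level of a list's members. The mitochondrial ribosome and import lists reach 44.2% and 44.7% higher, and ATP synthase none.

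Genes of cofactor supply were partly higher. Of 32 tested genes of coenzyme Q, iron-sulfur cluster and heme synthesis 12 rose (37.5%) and none fell, with a median log2 change of 0.22. Pdss1, which makes the coenzyme Q side chain, rose to 62.2 ± 5.57 CPM in knockout hearts, against 38.6 ± 2.16 CPM in wild type hearts (log2 change 0.69 ± 0.11, adjusted p = 0.000158). Coq10a, a coenzyme Q binding protein, stood at 514 ± 38.0 CPM in knockout hearts, against 370.1 ± 25.0 CPM in wild type hearts (adjusted p = 0.00021). Alas1, the first enzyme of heme synthesis, rose to 326 ± 25.7 CPM in knockout hearts, against 215 ± 15.3 CPM in wild type hearts (adjusted p = 0.00703). Without knockout heart 38, wild type heart 25 or wild type heart 70 the count was 8. In the shared tables alone Pdss1, Coq10a and Alas1 did not pass (adjusted p = 0.0948 to 0.322).

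In the respiratory chain, most of the genes that rose encode assembly factors. Of 31 complex I subunits 3 rose (9.68%, near the 8.19% of all tested genes) and none fell, with a median log2 change of 0.19. Ndufb7 led them, at 1908 ± 71.6 CPM in knockout hearts, against 1429 ± 155 CPM in wild type hearts (log2 change 0.42 ± 0.09, adjusted p = 0.00337). The count was 1 without knockout heart 36, knockout heart 38, wild type heart 25 or wild type heart 70, and the median within the shared tables was 0.04. Of 14 complex I assembly factors 4 rose, with Ndufaf1 at 188.6 ± 3.84 CPM in knockout hearts, against 121 ± 13.7 CPM in wild type hearts (adjusted p = 3.67e-05). All 7 of the 23 genes of complexes II and III that rose encode assembly factors, among them Bcs1l (35.0 ± 2.73 CPM in knockout hearts, against 26.9 ± 0.692 CPM in wild type hearts, adjusted p = 0.00152) and Sdhaf4 (179 ± 14.2 CPM in knockout hearts, against 129 ± 16.6 CPM in wild type hearts, adjusted p = 0.00396). Of 28 complex IV genes 6 rose, led by Coa5 (129 ± 8.09 CPM in knockout hearts, against 78.7 ± 3.66 CPM in wild type hearts, adjusted p = 2.47e-06) and the copper chaperone gene Cox19 (126 ± 11.8 CPM in knockout hearts, against 64.4 ± 3.21 CPM in wild type hearts, adjusted p = 8.34e-06). None of the 13 tested ATP synthase genes passed, and their median log2 change was 0.06, or -0.0037 within the shared tables. Within the shared tables the medians of complexes II and III and of complex IV were 0.05 and 0.03, against 0.20 and 0.19 over all hearts. Whether assembly factors and subunits differ was not tested. Knockout heart 35 against wild type hearts 23, 24 and 25 gave no call for Ndufb7, Bcs1l and Sdhaf4 (adjusted p = 0.121 to 0.298), where the log2 change of Ndufb7 was 0.27, against 0.42 over all hearts and that of Sdhaf4 was 0.29, against 0.48 over all hearts.

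**Figure D3:**
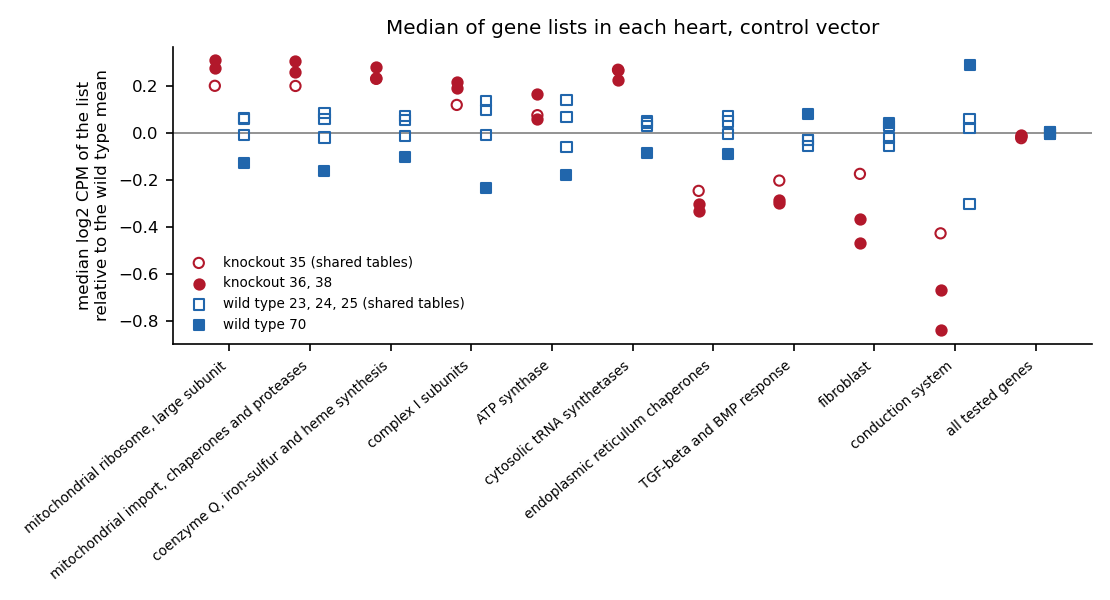
Median log2 CPM of 10 gene lists and of all tested genes in each heart, relative to the wild type mean, with knockout hearts as circles left of the wild type squares and open symbols for hearts in shared tables. Knockout and wild type hearts are apart for the mitochondrial ribosome, import, coenzyme Q, cytosolic tRNA synthetase, endoplasmic reticulum chaperone, TGF-beta, fibroblast and conduction lists and overlap for complex I subunits and ATP synthase. The medians of all tested genes are apart by little, and other lists not drawn are apart too.

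Mitochondrial shape genes that rose included both fusion and fission genes. Of 17 tested genes 6 rose (35.3%) and none fell, with a median log2 change of 0.27. Opa1, the inner membrane fusion dynamin, rose to 299 ± 10.6 CPM in knockout hearts, against 244 ± 19.2 CPM in wild type hearts (adjusted p = 0.00957). Mtfp1, an inner membrane fission protein, stood at 578 ± 25.3 CPM in knockout hearts, against 428 ± 38.9 CPM in wild type hearts (adjusted p = 0.000513), and Mief2, an adaptor of the fission dynamin, at 61.0 ± 5.27 CPM in knockout hearts, against 39.0 ± 4.30 CPM in wild type hearts (adjusted p = 0.00105). Mitophagy genes split. Optn, a receptor that brings marked mitochondria to autophagosomes, had 231, 206 and 242 CPM in the knockout hearts, against 102, 114, 144 and 88.8 CPM in the wild type hearts (log2 change 1.01 ± 0.15, adjusted p = 8.57e-05). Pink1, the kinase that marks damaged mitochondria, had 448, 397 and 433 CPM in the knockout hearts, against 651, 671, 572 and 581 CPM in the wild type hearts (log2 change -0.54 ± 0.08, adjusted p = 5.85e-05), and Bnip3, a hypoxia-induced receptor, fell to 89.5 ± 0.680 CPM in knockout hearts, against 158 ± 12.3 CPM in wild type hearts (adjusted p = 0.000584). Of the calcium uptake list 3 of 17 rose, among them Letm1, an inner membrane cation exchanger gene (114 ± 2.34 CPM in knockout hearts, against 77.3 ± 8.32 CPM in wild type hearts, adjusted p = 0.000386). No call was made for Opa1, Mtfp1 and Bnip3 within the shared tables (adjusted p = 0.0968 to 0.217).

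Fuel genes moved unevenly. Of 13 tested members of the pyruvate dehydrogenase list 5 rose (38.5%), led by Pdhx, the subunit that anchors dihydrolipoamide dehydrogenase, with 186, 119.7 and 191 CPM in the knockout hearts, against 92.2, 98.8, 109.3 and 89.3 CPM in the wild type hearts (log2 change 0.77 ± 0.12, adjusted p = 0.000186). That count was 3 without knockout heart 38 or without any of wild type hearts 23, 24 and 25. Of 20 TCA cycle genes 3 rose, with Ogdh at 3510.5 ± 62.5 CPM in knockout hearts, against 2747 ± 165.03 CPM in wild type hearts (adjusted p = 0.00788), and 1 of them passed without knockout heart 38. Of 33 genes of fatty acid uptake and oxidation 4 rose, a share of 12.1%, and the median log2 change was 0.04, which turned to -0.09 within the shared tables. Acsl1, which activates long-chain fatty acids, was the largest of these (1233 ± 44.6 CPM in knockout hearts, against 847 ± 58.5 CPM in wild type hearts, log2 change 0.54 ± 0.09, adjusted p = 0.000349). Bdh1, which oxidises the ketone body hydroxybutyrate, had 414, 367 and 331 CPM in the knockout hearts, against 190.2, 234, 236 and 135 CPM in the wild type hearts (log2 change 0.90 ± 0.18, adjusted p = 0.00162), while 2 of 21 ketone and branched-chain amino acid genes rose and 3 fell. Ogdh and Acsl1 lost their calls within the shared tables (adjusted p = 0.256 and 0.101).

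Glucose handling showed 9 of 31 tested genes higher (29.0%) and 2 lower. Ugp2, which makes UDP-glucose for glycogen, had 627, 546 and 567 CPM in the knockout hearts, against 263, 301, 317 and 226 CPM in the wild type hearts (log2 change 1.07 ± 0.15, adjusted p = 4.12e-05), and Gbe1, the glycogen branching enzyme, rose with it (80.3 ± 5.10 CPM in knockout hearts, against 53.5 ± 1.46 CPM in wild type hearts, adjusted p = 4.86e-06). Hk1, a hexokinase that binds mitochondria, rose to 182 ± 14.5 CPM in knockout hearts, against 121 ± 5.59 CPM in wild type hearts (adjusted p = 7.54e-05), and Slc2a4, the insulin-regulated glucose transporter, to 423 ± 3.00 CPM in knockout hearts, against 342 ± 25.2 CPM in wild type hearts (adjusted p = 0.00756). Ldha, the lactate dehydrogenase subunit that favours lactate production, fell, with 330.2, 298 and 257 CPM in the knockout hearts, against 507, 442, 465 and 496 CPM in the wild type hearts (log2 change -0.69 ± 0.10, adjusted p = 5.2e-05). In the phosphocreatine shuttle, Slc6a8, the creatine transporter, rose to 481 ± 29.7 CPM in knockout hearts, against 285 ± 15.2 CPM in wild type hearts (log2 change 0.76 ± 0.10, adjusted p = 2.03e-05), and Ckmt2, the mitochondrial creatine kinase that takes ATP from the translocator, had 5628, 5814 and 5743 CPM in the knockout hearts, against 4334, 4381, 3842 and 3382 CPM in the wild type hearts (log2 change 0.52 ± 0.09, adjusted p = 0.000408). Hk1, Slc2a4, Ldha and Ckmt2 did not pass within the shared tables (adjusted p = 0.0579 to 0.188).

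Chaperones of the endoplasmic reticulum were among the lower genes. Of 26 tested chaperone and unfolded protein response genes 10 fell (38.5%) and 1 rose, with a median log2 change of -0.28 and of -0.33 within the shared tables. Calr, the calcium-binding lectin chaperone, lies on chromosome 8 and is described with that chromosome. Hsp90b1, the endoplasmic reticulum Hsp90, had 547, 482 and 533 CPM in the knockout hearts, against 799, 757, 798 and 566 CPM in the wild type hearts (log2 change -0.49 ± 0.12, adjusted p = 0.00699). Sdf2l1, a partner of the Hsp70 of this compartment, fell to 13.2 ± 0.635 CPM in knockout hearts, against 26.2 ± 2.35 CPM in wild type hearts (adjusted p = 0.00162), and the disulfide isomerase gene Pdia6 to 32.5 ± 2.56 CPM in knockout hearts, against 52.9 ± 1.25 CPM in wild type hearts (adjusted p = 0.0013). The list's heart medians were -0.25, -0.33 and -0.30 in the knockout hearts, against 0.05, -0.01, 0.07 and -0.09 in the wild type hearts. The groups were thus apart, as they were for other lists and, by little, for all tested genes. The 10 lower members became 4 without knockout heart 36 and 7 were left without knockout heart 38. Ern1, a sensor kinase of the unfolded protein response, was the member that rose (23.0 ± 1.23 CPM in knockout hearts, against 17.0 ± 1.41 CPM in wild type hearts, adjusted p = 0.00539). In the shared tables alone Hsp90b1, Sdf2l1, Pdia6 and Ern1 did not pass (adjusted p = 0.0502 to 0.136).

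Of 23 tested cytosolic tRNA synthetases 9 rose (39.1%), none fell and 14 did not pass, and the log2 change was positive in all 23. Sars stood at 140.9 ± 10.00 CPM in knockout hearts, against 101.4 ± 4.70 CPM in wild type hearts (log2 change 0.47 ± 0.08, adjusted p = 0.00024), Aars at 99.8 ± 10.1 CPM in knockout hearts, against 65.3 ± 2.33 CPM in wild type hearts (log2 change 0.61 ± 0.12, adjusted p = 0.00149) and Iars at 89.1 ± 6.19 CPM in knockout hearts, against 62.4 ± 3.73 CPM in wild type hearts (adjusted p = 0.000362). The count was 6 without knockout heart 38 or without wild type heart 70. The wider list of the integrated stress response and one-carbon metabolism did not share that direction, as 3 of 32 rose, 4 fell and the median log2 change was -0.02, or -0.07 within the shared tables. Shmt1, the cytosolic serine hydroxymethyltransferase, had 21.9, 24.3 and 22.1 CPM in the knockout hearts, against 8.37, 8.54, 11.6 and 4.46 CPM in the wild type hearts (log2 change 1.46 ± 0.21, adjusted p = 5.63e-05). Slc7a1, a carrier of cationic amino acids, fell, with 21.7, 23.0 and 23.2 CPM in the knockout hearts, against 48.6, 45.1, 43.3 and 51.1 CPM in the wild type hearts (log2 change -1.06 ± 0.12, adjusted p = 5.57e-06). Of 17 cytosolic ribosomal proteins on the panel none rose and 1 fell.

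Among 32 tested voltage-gated channel and pump genes 6 rose and 6 fell. Scn4b, a beta subunit of sodium channels, rose to 213 ± 4.71 CPM in knockout hearts, against 68.8 ± 20.4 CPM in wild type hearts (log2 change 1.63 ± 0.16, adjusted p = 7.33e-07). On the lower side stood Kcnip2, the partner of the transient outward potassium channel (126 ± 3.65 CPM in knockout hearts, against 203 ± 41.4 CPM in wild type hearts, log2 change -0.70 ± 0.17, adjusted p = 0.00808). Calcium handling of the sarcoplasmic reticulum had 3 of 30 genes higher (10%, near the 8.19% of all tested genes) and 1 lower. S100a1, which binds the ryanodine receptor and the calcium pump, rose to 965 ± 99.7 CPM in knockout hearts, against 596 ± 46.0 CPM in wild type hearts (log2 change 0.69 ± 0.10, adjusted p = 8.08e-05). Casq1, the skeletal calsequestrin, fell, with 2.03, 2.05 and 2.78 CPM in the knockout hearts, against 11.6, 11.1, 8.73 and 18.2 CPM in the wild type hearts (log2 change -2.44 ± 0.30, adjusted p = 1.25e-05). Knockout heart 35 against wild type hearts 23, 24 and 25 gave no call for Kcnip2 and S100a1 (adjusted p = 0.146 and 0.0883).

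Of 9 tested conduction system markers 4 fell (44.4%), none rose, and all 9 log2 changes were negative. The median log2 change was -0.54, or -0.34 within the shared tables. Cacna1g, a T-type calcium channel of pacemaker cells, had 7.58, 6.30 and 6.28 CPM in the knockout hearts, against 18.3, 18.1, 10.8 and 24.2 CPM in the wild type hearts (log2 change -1.41 ± 0.22, adjusted p = 0.000186). Hcn4, the main pacemaker channel, had 4.15, 5.88 and 5.09 CPM in the knockout hearts, against 10.9, 12.0, 7.73 and 19.2 CPM in the wild type hearts (log2 change -1.31 ± 0.32, adjusted p = 0.00909), and Cntn2, an adhesion protein of Purkinje fibres, fell to 5.33 ± 1.05 CPM in knockout hearts, against 12.3 ± 2.24 CPM in wild type hearts (adjusted p = 0.00181). Summed over the list, the level was 93.2 to 118.5 CPM in knockout hearts, against 154 to 180 CPM in wild type hearts. No call was made for Cacna1g, Hcn4 and Cntn2 within the shared tables (adjusted p = 0.0887 to 0.185).

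In hormone and nitric oxide signalling the widest change was a rise. Nos1, the neuronal nitric oxide synthase that also sits at the sarcoplasmic reticulum, had 14.5, 12.6 and 11.2 CPM in the knockout hearts, against 0.506, 0.446, 1.18 and 1.11 CPM in the wild type hearts (log2 change 3.97 ± 0.30, adjusted p = 7.77e-09). Agt, the angiotensin precursor, had 30.9, 16.1 and 18.8 CPM in the knockout hearts, against 5.66, 4.52, 5.47 and 8.26 CPM in the wild type hearts (log2 change 1.87 ± 0.30, adjusted p = 0.000251). Of 33 tested members of the adrenergic, renin-angiotensin and nitric oxide list 4 rose and 8 fell. Corin, the protease that activates natriuretic peptides, fell to 169.6 ± 19.1 CPM in knockout hearts, against 261 ± 12.5 CPM in wild type hearts (adjusted p = 0.000159). Adra1a, an alpha-adrenergic receptor, fell to 12.2 ± 0.900 CPM in knockout hearts, against 19.5 ± 1.06 CPM in wild type hearts (adjusted p = 0.00167), and Npr1, the receptor of Nppa and Nppb, to 19.4 ± 2.23 CPM in knockout hearts, against 26.8 ± 2.82 CPM in wild type hearts (adjusted p = 0.0067). The 8 lower members became 4 without knockout heart 36 and 3 without knockout heart 38. Adra1a and Npr1 lost their calls within the shared tables (adjusted p = 0.162 and 0.101).

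Of 17 tested fibroblast markers 8 fell (47.1%), none rose and 9 did not pass, with a median log2 change of -0.35, or -0.23 within the shared tables. Of the 17 log2 changes 2 were positive. The collagen marker Col3a1 did not pass, with 53.6, 51.0 and 62.7 CPM in the knockout hearts, against 36.1, 38.3, 41.2 and 63.6 CPM in the wild type hearts. It was named after its values were seen. With the Ant1 vector the list's median was -0.02, and 1 marker was lower and none higher. Gsn, gelsolin, an abundant actin-severing protein of cardiac fibroblasts, had 672, 649.9 and 561 CPM in the knockout hearts, against 1005, 1108, 979.6 and 1090.3 CPM in the wild type hearts (log2 change -0.74 ± 0.07, adjusted p = 5.7e-07). Dpt, dermatopontin of the collagen matrix, fell to 143 ± 20.5 CPM in knockout hearts, against 225 ± 8.25 CPM in wild type hearts (adjusted p = 0.000189), and Vim, the mesenchymal intermediate filament, to 236 ± 18.6 CPM in knockout hearts, against 328 ± 31.3 CPM in wild type hearts (adjusted p = 0.00312). The summed markers stood at 2268 to 2739 CPM in knockout hearts, against 3320 to 3504 CPM in wild type hearts. By heart the list median was -0.17, -0.37 and -0.47 in the knockout hearts, against -0.06, -0.02, 0.03 and 0.04 in the wild type hearts, so heart 35 was the nearest to wild type. Without knockout heart 38 there were 4 lower members. The matrix list had 3 of 48 genes higher and 8 lower, a count that was 5 without knockout heart 36 or 38. Eln, elastin, had 34.5, 24.0 and 26.0 CPM in the knockout hearts, against 46.1, 43.9, 52.3 and 57.5 CPM in the wild type hearts (log2 change -0.83 ± 0.14, adjusted p = 0.000529), and Fbln1, fibulin, fell to 30.8 ± 1.74 CPM in knockout hearts, against 52.1 ± 3.56 CPM in wild type hearts (adjusted p = 0.000309), while the collagen gene Col8a1 rose to 27.2 ± 0.619 CPM in knockout hearts, against 14.6 ± 1.90 CPM in wild type hearts (adjusted p = 0.00384). Dpt, Vim, Eln, Fbln1 and Col8a1 did not pass within the shared tables (adjusted p = 0.0647 to 0.256), where the log2 change of Dpt was -0.43, against -0.65 over all hearts and that of Eln was -0.48, against -0.83 over all hearts.

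Genes of TGF-beta and BMP signalling were measured beside them. Of 36 tested genes 8 fell (22.2%) and 1 rose, with a median log2 change of -0.27. Ctgf, a matricellular target of TGF-beta and YAP, had 169, 114 and 118 CPM in the knockout hearts, against 237, 355, 319.9 and 349 CPM in the wild type hearts (log2 change -1.24 ± 0.25, adjusted p = 0.00207). Smad7, an inhibitor induced by the pathway, fell to 25.4 ± 4.61 CPM in knockout hearts, against 39.5 ± 5.82 CPM in wild type hearts (adjusted p = 0.000673), and Id1, a BMP target, to 118 ± 4.80 CPM in knockout hearts, against 158 ± 14.3 CPM in wild type hearts (adjusted p = 0.00117). Without knockout heart 38 there were 5 lower members. The list's medians were -0.20, -0.29 and -0.30 in the knockout hearts, against -0.06, -0.03, -0.03 and 0.08 in the wild type hearts. The part of the lower fibroblast markers in this was not tested. In the shared tables alone Ctgf, Smad7 and Id1 did not pass (adjusted p = 0.126 to 0.329), where the log2 change of Smad7 was -0.28, against -0.63 over all hearts.

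Markers of other cell types differed between hearts of 1 group. None of 17 tested macrophage markers and none of 11 lymphocyte markers passed. Endothelial markers had 1 of 15 higher, and their sums overlapped, at 2254 to 2429 CPM in knockout hearts, against 2204 to 2476 CPM in wild type hearts. Of 11 ventricular cardiomyocyte markers 3 rose and none fell, and the sums overlapped at 83575 to 88281 CPM in knockout hearts, against 73199 to 90180 CPM in wild type hearts. Liver transcripts were present in wild type hearts 23, 24 and 25. The list summed to 43.0 to 57.5 CPM in knockout hearts, against 78.4 to 392 CPM in wild type hearts, with heart 23 the highest, and 8 of its 10 tested genes passed as lower. The median over the list of log2(CPM + 0.5), relative to the wild type mean, was -1.19, -1.05 and -1.18 in the knockout hearts, against 2.43, -0.30, -0.58 and -1.496 in the wild type hearts. Wild type heart 70 thus lay below every knockout heart in this median, and most of its sum of 148 CPM came from Cyp2e1, a cytochrome P450, with 112 CPM. Alb, albumin, had 0.131, 0.195 and 0.165 CPM in the knockout hearts, against 159, 12.6, 10.8 and 0.248 CPM in the wild type hearts. Adipocyte markers were high in wild type hearts 25 and 70. Adipoq, adiponectin, had 1.80, 1.85 and 1.95 CPM in the knockout hearts, against 1.88, 1.67, 6.496 and 9.07 CPM in the wild type hearts, and Plin1, the lipid droplet protein perilipin, had 3.86, 5.65 and 4.83 CPM in the knockout hearts, against 4.14, 3.27, 17.6 and 25.0 CPM in the wild type hearts. Cfd, the adipocyte protease adipsin, had 64.7, 79.3 and 61.9 CPM in the knockout hearts, against 40.05, 35.3, 132 and 350.3 CPM in the wild type hearts. Of 14 tested adipocyte markers Ucp1 and Dio2 passed as lower, of which Dio2 lost its call when any knockout heart or wild type heart 25 or 70 was left out (adjusted p = 0.0553 to 0.0696) and within the shared tables, and the median log2 change was -1.15, or -0.33 within the shared tables. Plin1, Cfd and Cyp2e1 were named after their values were seen. Lung transcripts summed to 156 CPM in knockout heart 36 and to 1789.7 CPM in wild type heart 70, with 1.16 to 2.35 CPM in the other 5 hearts. Ucp1, the brown fat uncoupling protein, which lies in the chromosome 8 region described below, had 0.0327, 0.845 and 1.22 CPM in the knockout hearts, against 6.55, 15.6, 35.1 and 32.3 CPM in the wild type hearts. Knockout heart 35 against wild type hearts 23, 24 and 25 gave no call for Ucp1 (adjusted p = 0.0629).

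Outside the lists, the widest rises were in genes with low levels in wild type hearts. Sycp1, of the meiotic synaptonemal complex, had 17.6, 18.3 and 15.9 CPM in the knockout hearts, against 0, 0.119, 0.118 and 0.0619 CPM in the wild type hearts, and its fitted log2 change of 7.78 rests on at most 4 counts in any wild type heart. Arhgap9, a GTPase activating protein, had 115, 91.0 and 92.9 CPM in the knockout hearts, against 7.47, 10.7, 18.4 and 4.55 CPM in the wild type hearts (log2 change 3.27 ± 0.31, adjusted p = 2.95e-07). Tmem116, a membrane protein of unknown role, had 163, 152 and 146 CPM in the knockout hearts, against 20.1, 24.8, 25.5 and 16.0 CPM in the wild type hearts (log2 change 2.83 ± 0.13, adjusted p = 3.63e-12). Grin2c, an NMDA receptor subunit, rose to 16.8 ± 1.95 CPM in knockout hearts, against 3.14 ± 0.948 CPM in wild type hearts (log2 change 2.42 ± 0.21, adjusted p = 6.02e-08), Aqp8, a water channel of the inner mitochondrial membrane in liver, to 40.9 ± 11.7 CPM in knockout hearts, against 8.67 ± 4.03 CPM in wild type hearts (log2 change 2.23 ± 0.32, adjusted p = 6.93e-05), and Slc9a3, a sodium-proton exchanger, to 8.43 ± 1.39 CPM in knockout hearts, against 1.42 ± 0.423 CPM in wild type hearts (log2 change 2.57 ± 0.31, adjusted p = 7.41e-06). Among the falls, Cenpf, a kinetochore protein that also binds mitochondrial transport factors, had 2.61, 3.05 and 2.51 CPM in the knockout hearts, against 42.4, 18.7, 26.8 and 26.6 CPM in the wild type hearts (log2 change -3.39 ± 0.28, adjusted p = 3.76e-08). Of 36 tested cell cycle genes 2 rose and 3 fell. Among the most abundant genes that passed, Got1, the cytosolic aspartate aminotransferase of the malate-aspartate shuttle, rose to 1955 ± 45.9 CPM in knockout hearts, against 1286 ± 77.4 CPM in wild type hearts (log2 change 0.60 ± 0.09, adjusted p = 6.3e-05), and Cst3, the secreted protease inhibitor cystatin C, fell to 1772 ± 135 CPM in knockout hearts, against 2252 ± 130.4 CPM in wild type hearts (adjusted p = 0.00294, or 0.0757 with only the libraries lettered a and b). No call was made for Aqp8 and Cst3 within the shared tables (adjusted p = 0.0525 and 0.128), where the log2 change of Aqp8 was 1.39, against 2.23 over all hearts.

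Chromosome 8, which carries Slc25a4, had the highest share of changed genes of any chromosome. There 94 of 779 tested genes were higher and 69 lower, 20.9% in all, and 15 of the lower genes fell by 4-fold or more. Between 30 and 95 Mb, a window chosen with earlier results of these data known, 25.6% of 371 genes passed and 4.31% changed by 4-fold or more. On the rest of the chromosome 16.7% of 408 genes passed, 0.735% past 4-fold, and among all other tested genes 14.1% of 14624 passed, 0.855% past 4-fold. Calr (chr8:84841850-84846934) had 2.52, 3.61 and 2.78 CPM in the knockout hearts, against 556, 492, 496 and 519.5 CPM in the wild type hearts (log2 change -7.44 ± 0.20, adjusted p = 8.38e-17). Il15, the interleukin that sustains natural killer cells (chr8:82331632-82403222), had 12.8, 11.9 and 13.0 CPM in the knockout hearts, against 99.7, 78.1, 62.0 and 69.9 CPM in the wild type hearts (log2 change -2.62 ± 0.15, adjusted p = 8.6e-11). Mfhas1 (chr8:35587798-35679449) fell as well, with 13.7, 12.3 and 14.3 CPM in the knockout hearts, against 73.0, 79.9, 72.1 and 74.8 CPM in the wild type hearts (log2 change -2.48 ± 0.10, adjusted p = 5.14e-13). Zswim4 had 0.196, 0.195 and 0.0661 CPM in the knockout hearts, against 13.3, 15.9, 14.1 and 24.4 CPM in the wild type hearts, Ubxn8, a membrane adaptor of the segregase VCP, had 0.0980, 0.0975 and 0 CPM in the knockout hearts, against 11.9, 11.2, 12.3 and 12.3 CPM in the wild type hearts, and Pdgfrl had 0.0327, 0.0650 and 0.0331 CPM in the knockout hearts, against 8.37, 10.3, 11.0 and 9.44 CPM in the wild type hearts. The groups were apart in all 6 genes. Il15 and Mfhas1 fell outside the naming rule and were named after their values were seen. Acta1 lies on the same chromosome, outside the window, and Ndufb7 and Ucp1 lie inside it. This is not a full list of the named genes on chromosome 8, and those not listed share the same limit. Which of these changes go with the Slc25a4 allele's neighbourhood and which with the loss of Ant1 cannot be told apart in these groups.

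**Figure D4:**
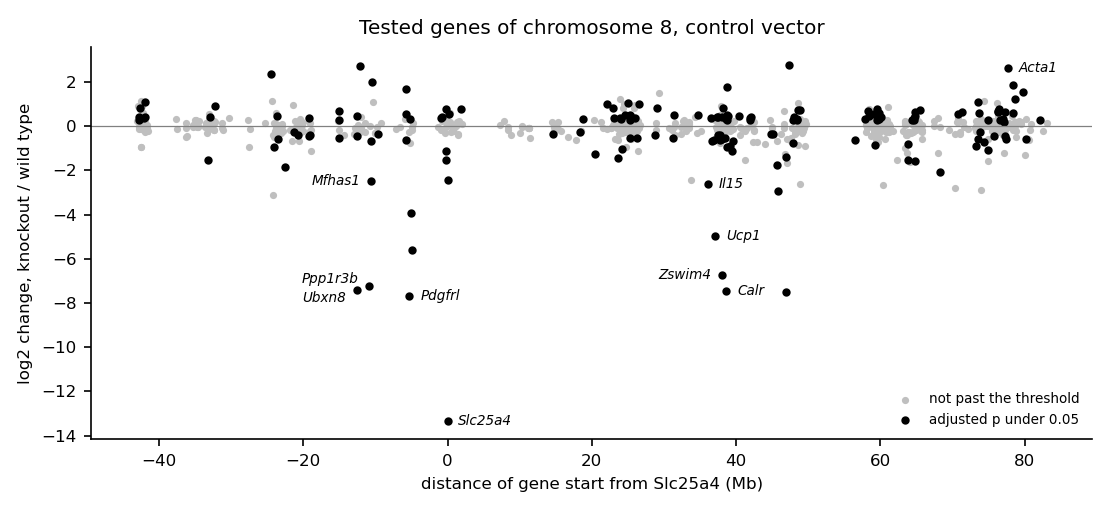
Log2 change, knockout over wild type, of the 779 tested genes of chromosome 8 against the distance of each gene's start from Slc25a4 in megabases, with genes past adjusted p 0.05 in black. Calr, Ubxn8, Pdgfrl, Zswim4 and Ppp1r3b are among the genes below -6, and Acta1 above 2.

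The same genotypes were also compared under the Ant1 vector, in 4 knockout and 3 wild type hearts that share no heart with the comparison above. There 1524 of 15403 genes passed (9.89%), 827 higher (5.37%) and 697 lower (4.53%). The 1524 became 782 to 1642 as single hearts were left out. Slc25a4 itself also passed as lower in the knockout hearts given the Ant1 vector (adjusted p = 8.13e-06), and did so with any single heart left out. Its level in those hearts was thus not that of wild type hearts. Of the 1261 genes higher with the control vector 464 were also called higher and 9 lower, and of the 959 lower genes 210 were called lower and 5 higher. The 674 genes called alike are 30.4% of the genes called with the control vector and 44.2% of those called with the Ant1 vector. The median log2 change was 0.48 with the control vector and 0.27 with the Ant1 vector over the higher genes, and -0.62 and -0.22 over the lower genes. These genes were chosen by their change with the control vector, so the 2 medians are a description. Calr, Zswim4, Sycp1, Arhgap9 and Tmem116 changed with the Ant1 vector too, at log2 changes of -7.26, -6.59, 7.35, 3.11 and 2.73. Nppb also rose there, at 1.81 (adjusted p = 0.000309), and so did Acta1, at 1.52 (adjusted p = 0.00271).

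A test of the difference between the vectors passed for 77 of 15403 genes (0.5%), and 31 of the 1261 higher and 25 of the 959 lower genes were among them. The test contains the control vector change by which those genes were chosen, so the 31 and 25 are a description. Ankrd2 had a log2 change of 2.85 with the control vector and of 1.03 with the Ant1 vector (difference 1.82 ± 0.40, adjusted p = 0.0409). Hspb7 had 0.62 with the control vector and -0.10 with the Ant1 vector (difference 0.71 ± 0.12, adjusted p = 0.0117). For Asb18, an ankyrin repeat ubiquitin ligase subunit, the changes were 0.97 and -0.20 (difference 1.18 ± 0.17, adjusted p = 0.00373). Gsn, at -0.74 and -0.26, and Eln, at -0.83 and 0.41, differed in the other direction (adjusted p = 0.0396 and 0.0117). Ppp1r10, a regulator of protein phosphatase 1, rose with the control vector (0.61) and fell with the Ant1 vector (-0.78; difference adjusted p = 0.00488), although its rise did not pass within the shared tables (adjusted p = 0.143). The difference did not pass for Acta1 (adjusted p = 0.207), Nppb (0.675) or Ankrd1 (0.741). The number of genes with a vector difference ran from 15 to 172 as single hearts were left out. In those 14 fits Asb18, Hspb7, Eln and Ppp1r10 passed each time, while Ankrd2 was lost in 10 (adjusted p up to 0.135) and Gsn in 9 (up to 0.115).

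**Figure D5:**
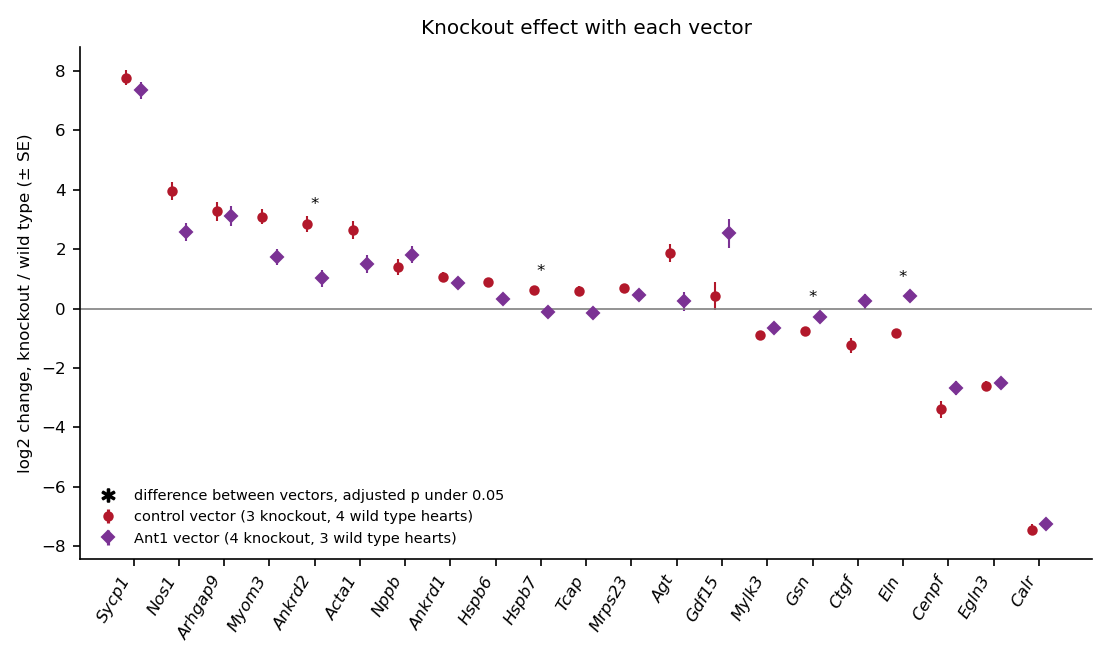
Log2 change ± SE, knockout over wild type, of 21 genes named in the text with the control vector (circles, 3 knockout and 4 wild type hearts) and with the Ant1 vector (diamonds, 4 and 3 hearts), with an asterisk where the difference between vectors passed. Sycp1 lies above 7 and Calr below -7 with either vector, and Ankrd2, Hspb7, Gsn and Eln carry the asterisk.

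Set against these knockout hearts, the 3 knockout ND6 hearts with the control vector differed in 163 genes (1.06%), 83 higher and 80 lower. The count was 46 to 79 with any single heart left out, 842 with only the compared groups in the fit and 1953 with the table as a covariate. Several genes that were higher in knockout than in wild type hearts were lower in the knockout ND6 hearts than in the knockout hearts: Ankrd2 (-1.51, adjusted p = 0.0105), Hspb7 (-0.47, adjusted p = 0.0102), Hspb6 (-0.49, adjusted p = 0.0222), Asb18 (-0.84, adjusted p = 0.00186) and Got1 (-0.55, adjusted p = 0.00525), each given as a log2 change. Other named genes that were higher in knockout than in wild type hearts passed here too, with their direction not reported here. They were Agt (adjusted p = 0.00183), Hk1 (0.00251), Gadd45b (0.00575), Ppp1r10 (0.01999) and Acsl1 (0.0379). Gdf15, which did not pass between knockout and wild type hearts, was higher by 2.86 in the knockout ND6 hearts (adjusted p = 0.00563). Rrm2, the ribonucleotide reductase subunit of dividing cells, did not differ detectably between knockout and wild type hearts (3.50 ± 0.881 CPM in knockout hearts, against 4.01 ± 0.987 CPM in wild type hearts, adjusted p = 0.557) and was higher by 1.80 with the ND6 change (adjusted p = 0.000183). With single hearts left out, Asb18, Got1, Gdf15, Rrm2, Agt, Hk1 and Gadd45b passed each time. Of 6 cases Hspb6 was lost in 4, Ankrd2 in 3, Hspb7 in 2, Ppp1r10 in 5 and Acsl1 in 6. This comparison and the one with wild type hearts share the knockout hearts.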

How the data were processed

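RNA of whole hearts was sequenced on an AmpliSeq mouse transcriptome panel. The authors deposited raw counts per amplicon in 14 tables of 8 libraries. The build is mm10, per the submitters' processing notes, and no source used here names the aligner or counter. Symbols that had turned into dates (27) were restored. Libraries held 3595093 to 8290798 counts and were summed by heart, so a heart and not a library is a replicate. Counts were analysed with edgeR 4.0.16 in R 4.3.3 (TMM factors, filterByExpr, quasi-likelihood test, 7 groups in 1 fit), and 15403 genes were tested. The SE is the log2 change divided by the root of F. In simulated counts for this comparison, of 50 genes changed at each size and 15111 tested, 100% of 4-fold and 94% of 2-fold changes were recovered, with 5 false calls. The simulation held no table effect and few changed genes, so its recovery and false calls do not carry over to the data.

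Members, lists and the chromosome 8 window were chosen with earlier results of these data known. Nameable were a fixed set of genes, the 12 largest and the 12 most abundant changes in each direction with hearts apart (at least 5 CPM for the largest), members of the lists that passed, with up to 5 by smallest adjusted p whether or not they passed, and the 5 leading genes of the vector and ND6 contrasts. Among these, genes for the text were picked with their outcomes under the alternatives known, and those that kept their calls were preferred. Alternatives were other size factors, no filter, DESeq2 1.42.0, limma 3.58.1 voom on single libraries with the table as covariate (within-heart correlation 0.175), fewer groups, libraries or hearts, and a 1.2-fold minimum. Promoters are from RefSeq on GRCm38.p6, where 11537 tested genes had an entry. Gene positions on mm10 are from the annotation and cover 22731 amplicons. The 3 single-nucleus samples and 2 libraries of unclear group were not analysed here, and some genes are not reported here.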

Additional observations from a re-analysis of the deposited data

Results flagged for a closer look

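In 14 of the named genes and marker sums 1 of the 4 wild type hearts lay apart. The gap then took up most of the group's range. Chance gives such a gap in about 1 in 20 of all genes and sums looked at. Most of those looked at had no heart apart, so part of the 14 can be chance. They share the same hearts, and whether 14 is more than chance gives was not tested. Heart 70 was the heart apart in 9 of the 14. It was highest for the Schwann cell and neuron markers (71.348 CPM summed), the mesothelium and epicardium markers (165.62 CPM), the lung markers (1789.7 CPM) and Mylk (46.967 CPM). It was lowest for Csrp3 (2300.8 CPM), Mrps18b (68.347 CPM), Ndufaf1 (100.56 CPM), Ppp1r10 (47.772 CPM) and Tpm1 (4221.9 CPM). Heart 23 was highest for Alb (159.13 CPM) and lowest for Slc25a31 (0.92308 CPM). Heart 24 was highest for Uchl1 (29.564 CPM) and lowest for Ddx3y (228.24 CPM), and heart 25 was highest for Pdss1 (41.828 CPM).

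The knockout effect differed between the vectors, by a test of the difference over all genes, in 10 of 138 named genes tested. Leading genes of this test could be named by rule, so the count of 10 is a description. The log2 change with the control vector minus that with the Ant1 vector was positive for Ankrd2 (1.8209), Ppp1r10 (1.3892), Asb18 (1.1755), Hspb7 (0.7108), Tefm (0.5794) and Coa5 (0.5581). It was negative for Eln (-1.2407), Id1 (-0.6511), Gsn (-0.4725) and Slc25a4 (-7.7505), the gene that the Ant1 vector carries. With each of 14 hearts left out in turn, Ankrd2 and Tefm lost the call in 10 fits, Gsn in 9, Coa5 in 6 and Id1 in 1.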

How the results depend on the processing

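The 2220 genes that passed between knockout and wild type hearts ranged from 1366 to 1976 as single hearts were left out (867 to 1137 higher and 499 to 884 lower, lowest without knockout heart 38). They were 734 (417 higher, 317 lower) when a 1.2-fold change was asked for, 1370 (752 and 618) with only the libraries lettered a and b, and 367 (258 higher) within the shared tables, where knockout heart 35 stands alone and is assumed to vary like the other hearts. Without hearts 27 and 37, which carry the Ant1 vector and libraries that differ between tables, 3098 passed (1633 and 1465), an alternative chosen after seeing the data. DESeq2 gave 2545, the table as a covariate 2920, no filter 1888 and leaving out the chromosome 8 window 2125. The covariate fit, here and below, used single libraries with a within-heart correlation of 0.175. Libraries of 1 heart thus count largely as separate replicates in it, so its counts can be too high. Of the 128 genes named in the text that passed, 68 did not pass within the shared tables and 126 passed in the other 15 settings without a minimum fold, but they were picked with this known, and 35.9% of all called genes did so. With the Ant1 vector 1524 genes passed, or 782 to 1642 as single hearts were left out, 367 at 1.2-fold, 441 with libraries a and b, and 866 with only the compared groups. The vector difference passed for 77 genes, or 15 to 172 as single hearts were left out, 45 without a filter, 7 at 1.2-fold, 1 with libraries a and b, 378 without hearts 27 and 37, 341 with DESeq2 and 498 with the table as covariate. Between knockout ND6 and knockout hearts 163 passed, or 46 to 79 as single hearts were left out, 22 at 1.2-fold, 98 with libraries a and b, 842 with only the compared groups, 597 without hearts 27 and 37, 495 with DESeq2 and 1953 with the table as covariate. The cause of these moves was not tested. List medians changed sign in at least 1 setting for 21 of 67 lists, 14 of them within the shared tables, where the TCA cycle (0.07, but -0.05), fatty acid (0.04, but -0.09), sarcomere (0.03, but -0.06) and matrix lists (-0.11, but 0.0045) were among them. Further from 0 were lymphocyte markers (-0.29, but 0.061 with only the compared groups and 0.24 with the table as covariate), lung markers (-3.14, from -7.51 without knockout heart 36 to 3.95 without wild type heart 70, and 0.43 within the shared tables), thymus markers (-0.18, from -0.38 without knockout heart 36 to 0.017 without knockout heart 38), mesothelium (-0.42, but 0.055 within the shared tables), erythroid (0.21, but -0.23 without knockout heart 35) and immediate early genes (-0.20, but 0.065 without wild type heart 70). No paired analysis was possible because knockout and wild type hearts carry no number in common. On simulated counts, with 50 genes changed at each size and no table effect, 56% of 1.5-fold and 2% of 1.2-fold changes were recovered. Far fewer genes changed there than the 2220 called here, so these rates do not carry over to the data. Of the genes called in the data, 826 higher and 456 lower ones changed by less than 1.5-fold.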

Other observations

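Gene lists not described above had the following counts. Among 37 other mitochondrial carriers of the SLC25 family 6 rose and none fell, with a median log2 change of 0.19. Slc25a13, the aspartate-glutamate carrier, stood at 160.4 ± 11.2 CPM in knockout hearts, against 112 ± 3.49 CPM in wild type hearts (adjusted p = 0.000135). Of 41 genes of autophagy and the lysosome 4 rose (9.76%) and none fell, near the 8.19% higher over all tested genes. Wipi1, which marks forming autophagosomes, stood at 135 ± 13.5 CPM in knockout hearts, against 92.8 ± 4.17 CPM in wild type hearts (adjusted p = 0.000139). Of 43 ubiquitin ligase and proteasome genes 5 rose (11.6%) and none fell, also near that share. The regulatory particle gene Psmd8 had the smallest adjusted p of the list (265 ± 19.9 CPM in knockout hearts, against 195 ± 7.39 CPM in wild type hearts, adjusted p = 7.09e-05). Among 35 insulin and mTOR genes 1 rose and 4 fell. Mtor itself, the growth kinase, was the member that rose, with 67.1, 74.5 and 62.4 CPM in the knockout hearts, against 35.3, 37.2, 38.3 and 45.8 CPM in the wild type hearts (log2 change 0.80 ± 0.09, adjusted p = 3.5e-06). Igf2, the fetal growth factor, fell to 23.6 ± 3.65 CPM in knockout hearts, against 38.4 ± 6.60 CPM in wild type hearts (adjusted p = 0.000839), and Foxo1, a transcription factor restrained by insulin, to 25.6 ± 1.99 CPM in knockout hearts, against 35.6 ± 3.59 CPM in wild type hearts (adjusted p = 0.00141). Wipi1, Psmd8 and Foxo1 lost their calls within the shared tables (adjusted p = 0.0597 to 0.179).

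Of 25 angiogenic factor genes 2 rose and 3 fell. Egln3, a prolyl hydroxylase that is itself induced by hypoxia-inducible factors, had 13.6, 12.0 and 10.8 CPM in the knockout hearts, against 77.3, 74.7, 87.8 and 53.5 CPM in the wild type hearts (log2 change -2.59 ± 0.17, adjusted p = 1.42e-09), and its log2 change with the Ant1 vector was -2.49. Angpt1, which steadies vessels through the receptor Tie2, fell to 23.5 ± 3.12 CPM in knockout hearts, against 44.8 ± 11.0 CPM in wild type hearts (adjusted p = 0.000803), and Fgf2 to 9.76 ± 2.03 CPM in knockout hearts, against 17.7 ± 0.771 CPM in wild type hearts (adjusted p = 0.000186). Of 40 interferon response and nucleic acid sensing genes 1 rose and 3 fell. Mavs, the adaptor of RNA sensing on the mitochondrial outer membrane, rose to 246 ± 7.96 CPM in knockout hearts, against 138 ± 8.19 CPM in wild type hearts (adjusted p = 0.000599), while the interferon-inducible GTPase gene Igtp fell to 10.2 ± 1.53 CPM in knockout hearts, against 21.3 ± 5.51 CPM in wild type hearts (adjusted p = 0.00531). Among 30 immediate early genes 2 rose and 6 fell, and Gadd45a and Gadd45b, both growth arrest genes, were the pair that rose (85.3 ± 5.37 CPM in knockout hearts, against 50.01 ± 11.0 CPM in wild type hearts for Gadd45a, and 57.4 ± 6.92 CPM in knockout hearts, against 22.5 ± 2.50 CPM in wild type hearts for Gadd45b). Ier3, an early survival gene, fell to 14.4 ± 2.23 CPM in knockout hearts, against 32.1 ± 9.73 CPM in wild type hearts (adjusted p = 0.000471). Of 33 lipid synthesis and storage genes 5 rose and 2 fell, with Agpat2, an enzyme of phosphatidic acid synthesis, at 133.2 ± 3.20 CPM in knockout hearts, against 86.8 ± 5.71 CPM in wild type hearts (adjusted p = 8.57e-05). The antioxidant list had 2 of 39 higher and 3 lower, the cell death list 2 of 26 higher and 2 lower, and the circadian clock list 1 of 17 higher and 1 lower. Fgf2, Mavs, Igtp, Gadd45a and Gadd45b did not pass within the shared tables (adjusted p = 0.0525 to 0.262), where the log2 change of Fgf2 was -0.56, against -0.86 over all hearts.

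The remaining marker lists had few calls. No atrial (9 tested), erythroid (4), mesothelial (10), lung (6), thymus (2) or sex-linked (4) marker passed. Of 8 endocardial and lymphatic markers 1 rose and 2 fell, and of 11 pericyte and smooth muscle markers 3 fell, among them Mylk, the smooth muscle myosin light chain kinase (26.1 ± 2.28 CPM in knockout hearts, against 38.5 ± 5.67 CPM in wild type hearts, adjusted p = 0.00121). Of 9 neutrophil and mast cell markers 1 fell, of 14 adipocyte markers 2, of 11 Schwann cell and neuron markers 3, and of 17 skeletal muscle markers 1 rose and 1 fell. In the shared tables alone Mylk did not pass (adjusted p = 0.121).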
